A study of Arabidopsis thaliana with 24 samples.

Results

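A minority of Arabidopsis thaliana genes carry methyl groups in the pattern usual for transposons, with dense CG methylation and CHG methylation as well (H stands for A, C or T). They were chosen by a rule on their own methylation: a gene on chromosomes 1 to 5 was included when its level, summed over the 4 stem-cell pools, reached 30% in CG and 15% in CHG with at least 40 cytosine calls in each of the 2 contexts. Of 32961 nuclear genes, 775 had too few calls, and 1578 met the rule. A level is the share of cytosine calls in a gene that were read as methylated. Stem-cell CG and CHG levels chose these genes, so those levels, and every difference taken from them, are given as descriptions. Sperm levels and CHH levels were not used by the rule.

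Bisulfite sequencing, which reads unmethylated cytosines as thymine, was applied to DNA from sorted nuclei of the Col-0 ecotype under 16 h light and 8 h dark. The sperm samples came from pollen at 35 days, with 50000 nuclei each. The stem-cell samples came from seedlings at 7 days, with 3000 to 4000 nuclei sorted for mCherry, and the labels used here name neither the promoter of that reporter nor the mutant alleles. The genotypes were labelled wt21, ago5, ago9 and ago59, the last read as the ago5 ago9 double mutant. ARGONAUTE 5 and ARGONAUTE 9 are proteins that bind small RNAs. The labels give 2 replicates per group, and the deposited table has 1 column per group and context, called a pool here. Differences between pools therefore have no replicate check and no test, and every interval printed covers counting error only. The intervals count each call as independent. A read can give several calls and overlapping genes share calls, so the intervals can be too narrow even for counting error. The table holds no transcript levels, so the sorted cell types could not be checked against marker genes.

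In plants, CG methylation is copied after replication by MET1, and CHG methylation is kept by CMT3, which is recruited by methylation of histone H3 at lysine 9. CHH methylation has to be set again after each replication, by CMT2 or by the DRM enzymes guided by small RNAs and ARGONAUTE proteins. Many active genes carry CG methylation alone in their bodies. Methylation in CG and CHG together is known from transposons and is commonly associated with silent chromatin. Sperm of Arabidopsis is known for dense CG methylation and for low CHH methylation at many transposons.

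The 5 stretches below are shown because they carry the cytosines that the rule reads, each from a gene described below. Each is the 150 bases between start and stop codon, introns included, that hold the most CG and CHG sites, read 5′ to 3′ on the gene's strand from the RefSeq assembly TAIR10.1. Capitals mark CG and CHG sites.
AT3G26616: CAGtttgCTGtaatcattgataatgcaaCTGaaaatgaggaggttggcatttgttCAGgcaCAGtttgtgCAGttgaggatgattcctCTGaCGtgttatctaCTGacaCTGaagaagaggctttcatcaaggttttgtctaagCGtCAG
AT2G24870: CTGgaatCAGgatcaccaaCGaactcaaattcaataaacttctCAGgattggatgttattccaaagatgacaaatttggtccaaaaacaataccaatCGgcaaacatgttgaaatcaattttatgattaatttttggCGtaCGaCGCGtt
AT1G75945: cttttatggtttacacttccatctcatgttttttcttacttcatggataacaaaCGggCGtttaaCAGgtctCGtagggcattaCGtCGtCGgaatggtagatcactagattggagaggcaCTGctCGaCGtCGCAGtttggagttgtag
RPP4: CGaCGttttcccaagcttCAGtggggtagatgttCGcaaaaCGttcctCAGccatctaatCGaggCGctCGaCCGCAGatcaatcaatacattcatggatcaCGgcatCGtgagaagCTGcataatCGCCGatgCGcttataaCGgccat
AT5G11470: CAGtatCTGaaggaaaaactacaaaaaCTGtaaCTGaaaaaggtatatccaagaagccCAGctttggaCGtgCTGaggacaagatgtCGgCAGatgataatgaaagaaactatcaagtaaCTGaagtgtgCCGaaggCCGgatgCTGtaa
AT3G26616, at chr3:9787574-9788141, had the highest stem-cell CHG level among the genes ranked. AT2G24870, a self-incompatibility S1 gene, had summed levels of 44.9% CG and 28.4% CHG in stem cells and 63.4% and 30.5% in sperm. AT1G75945 differed most between genotypes, and RPP4 is a disease resistance gene. AT5G11470, known as IBM2, stands for the genes with CG methylation alone: its summed stem-cell levels were 40.2% in CG and 0.30% in CHG. Its stretch holds 11 CHG sites, against 10 in that of AT3G26616. Each stretch was picked for holding the most sites, so these counts do not describe the whole genes.

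The genes were short and lay among transposable elements. Their median length was 708 bases, against 3592 bases for the 3109 genes with at least 30% CG but under 15% CHG (called CG-only genes below) and 1805 bases for all nuclear genes. Annotated transposable elements filled a median of 35.8% of the 500 kb around them, against 9.29% around CG-only genes and 7.32% around all genes. Where at least 50% of the window was transposable element, 568 of 1289 genes met the rule (44.1%). Where under 20% was, 545 of 27883 did (1.95%). Members thus lay both in windows rich in transposable elements and in windows with few of them.

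**Figure D1:**
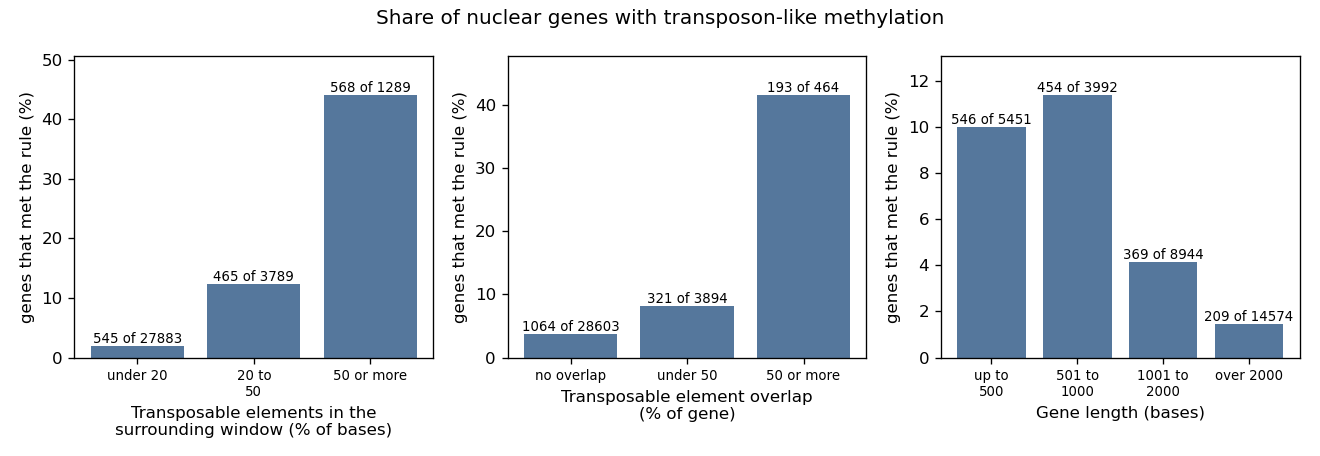
Bars give the percentage of nuclear genes that met the rule, by the share of transposable elements in the surrounding 500 kb, by the share of the gene inside annotated transposable elements, and by gene length, with members and genes counted above each bar. The share was 44.1% in windows with at least 50% transposable element and 1.95% in windows under 20%, and genes of up to 1000 bases met the rule more often than longer ones.

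Most of the genes did not themselves overlap a transposable element. Of the 1578, 1064 (67.4%) had no base inside one, against 86.8% of all genes, and 193 lay at least 50% inside one. With 2000 bases added on each side, a median of 28.9% of the stretch was transposable element, and 211 members (13.4%) had none there. The sites that the rule reads were about as dense as elsewhere: members held a median of 2.63 CG and 2.50 CHG sites per 100 bases, and all genes 2.52 and 2.99. Median GC content was 38.9% in members and 38.8% in all genes.

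By chromosome, 323, 381, 356, 234 and 284 members lay on chromosomes 1 to 5. These were 3.70%, 7.25%, 5.46%, 4.68% and 3.81% of the nuclear genes there. Members clustered: 57.0% had another member as the next gene on at least 1 side, against 5.83% of the other genes. Genes were ordered by start, so overlapping genes counted as neighbours. AT2G16018, for example, contains the members AT2G16019 and AT2G16020, and AT3G06175 overlaps AT3G06185. The part of such overlaps in the clustering was not tested. The 981 runs of consecutive members included 679 single genes. The longest run held 13 genes at chr3:12642072-12952593, where summed stem-cell CG levels lay between 78.6% and 88.7%. Its coding genes are annotated as zinc knuckle, zinc finger, Ulp1 protease, helicase, replication protein A and nucleic acid-binding relatives and as uncharacterized proteins. A compact run of 9 genes at chr2:6970352-6978794 spans one hAT transposase-like gene, AT2G16040.

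RefSeq annotates 1116 of the members as protein-coding, 314 as long non-coding RNA and 39 as microRNA genes and the rest as other RNA classes. The long non-coding members were 9.02% of 3480 such genes, and the microRNA members 12% of 325. The coding members made up 4.08% of all protein-coding genes. Some product names were above this share, and some of these far above it. Proteins named as transposon-derived had 82 members of 249 (32.9%), and the S1 family, small secreted proteins named after the poppy self-incompatibility protein, had 22 of 67 (32.8%). The ECA1 gametogenesis family, named after early culture abundant proteins, had 26 of 83 (31.3%). That family was picked after its values were seen. F-box proteins, which choose targets for ubiquitination, had 43 of 653 (6.58%), and small cysteine-rich proteins, many of them secreted signals or defensins, had 41 of 592 (6.93%). MADS-box and AGAMOUS-like proteins had 10 of 120 (8.33%). Below the share were disease resistance proteins with 6 of 221 (2.71%) and kinases with 27 of 1382 (1.95%). At the other end were ribosomal proteins with 2 of 342, cytochrome P450 enzymes with 3 of 246 and B3 domain proteins, as named in RefSeq, with 0 of 116. The B3 class came from a search of names and did not hold the 8 auxin response factors, described below, that met the rule. Unnamed or hypothetical proteins supplied 435 of the coding members, or 10.8% of 4011 such genes. They were 39.0% of the coding members and 14.7% of all protein-coding genes. None of these shares was adjusted for gene length. Of all nuclear genes up to 500 bases 10.0% met the rule, and of those over 2000 bases 1.43%. The small cysteine-rich members had a median length of 416 bases and the disease resistance members 3456 bases.

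Several gene families held both genes that met the rule and genes that did not. The families in this and the next paragraph were looked at after the names of the members had been seen. The auxin response factors (ARF) are transcription factors that act on auxin-responsive promoters. Of 20 genes with an ARF symbol and that product name, 8 met the rule, namely ARF12 to ARF15 and ARF20 to ARF23, all on chromosome 1. Their median CG level was 86.7% in wt21 stem cells and 97.3% in wt21 sperm. Their median CHG level was 53.9% in wt21 stem cells, and in sperm it was 57.4% for wt21, 53.2% for ago5, 52.7% for ago9 and 50.6% for ago59. Among the 12 other ARF genes the highest summed stem-cell CHG level was 0.43%, while their CG had a median of 28.4% and reached 58.5% in ARF6. Transposable elements filled a median of 40.2% of the surroundings of the 8 members and 6.20% of those of the other 12. ARF13 was the least methylated of the 8, with summed stem-cell levels of 71.4% in CG and 28.5% in CHG.

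Genes of reproduction were among the members too. The LURE1 peptides, secreted by the synergid cells, attract pollen tubes, and 4 of their 5 genes met the rule. The fifth, LURE1.3, had a CG level of 87.7% but too few calls. LURE1.1 had summed stem-cell levels of 81.6% in CG and 50.5% in CHG. Sperm calls of these genes were too few to read single pools. Other families were looked at as well. Of 80 LCR (low-molecular-weight cysteine-rich) genes 2 met the rule (2.5%), and of 35 LOB domain genes 3 did (8.57%). Of 6 MIR5645 microRNA genes 4 met it, and of 5 MIR854 genes 3.

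All contexts differed between the 2 cell types. In wild type, the mean CG level of the members was 78.8% in stem cells and 93.5% in sperm, higher in sperm by 14.7 ± 0.255 points (95% counting half-width, 1573 genes with calls in both). Mean CHG was 40.5% in stem cells and 47.9% in sperm, higher by 7.41 ± 0.385 points over 1575 genes. Mean CHH went the other way, from 6.71% in stem cells to 4.29% in sperm, lower by 2.41 ± 0.0986 points over 1577 genes (a difference of -2.41). By genes, 1538 had more CG in sperm and 30 less, 1218 had more CHG and 356 less, and 296 had more CHH and 1277 less.

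**Figure D2:**
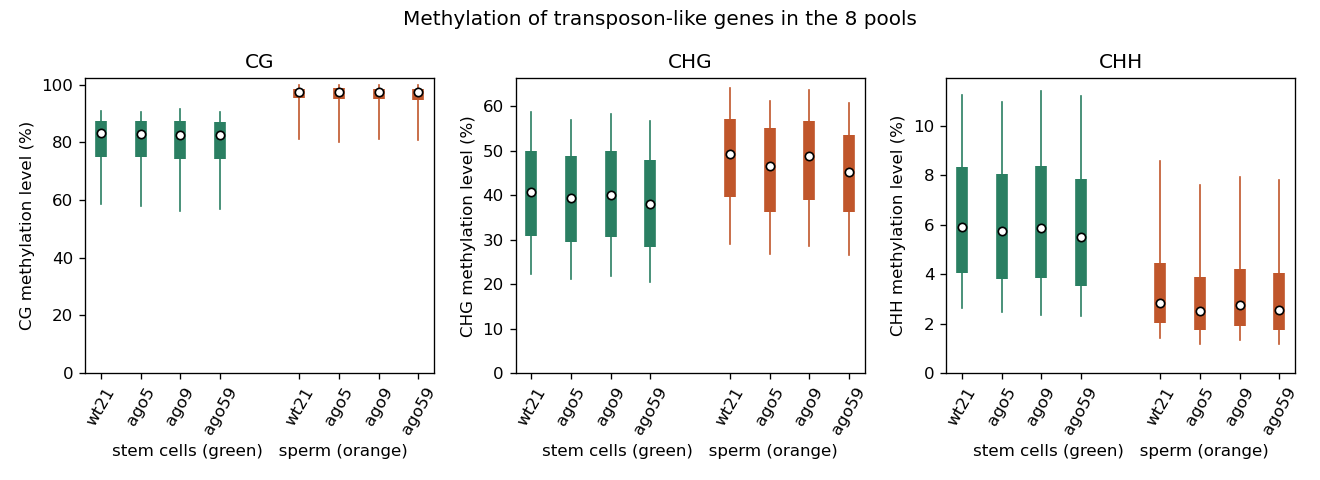
Methylation levels of the members in each pool, in CG, CHG and CHH (vertical axes in percent, each from 0), with circles for the median over genes, thick bars from the 25th to the 75th percentile and thin lines from the 10th to the 90th. Stem-cell pools are green and sperm pools orange: in wt21 the median was 83.1% and 97.6% in CG, 40.8% and 49.2% in CHG, and 5.89% and 2.82% in CHH.

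Sperm CG lay near its ceiling. At least 90% CG was reached in wt21 sperm by 1146 of the 1382 members with 40 or more calls there, and in wt21 stem cells by 162 of 1430. Counted as differences of at least 10 points with 10 or more calls in each pool, 1115 of 1549 members had higher CG in sperm and 3 had lower, where 7.81% of all genes tested were higher and 0.0962% lower. In CHG, 611 of 1542 were higher and 96 lower, where 2.4% of all genes were higher and 0.369% lower. In CHH, 42 of 1573 were higher and 68 lower, where 0.343% and 0.276% of all genes were. The rule used the stem-cell pools of this contrast, so nothing is read from these counts against the shares of all genes.

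Transposable element genes, annotated in the same table, are the closest comparison. Wild-type sperm minus stem cells gave 12.9 points of CG for them, 6.28 of CHG and -3.67 of CHH. For CG-only genes it gave 5.50 points of CG, 0.93 of CHG and 0.57 of CHH. The direction of the CHH difference thus followed transposable element genes in the members and was the opposite in CG-only genes. Chloroplast DNA, which is not methylated in plants, had 0.30% CHH in wt21 stem cells and 1.37% in wt21 sperm, where it was read from far fewer calls, 22926 against 9262714. It was 4.56% in ago9 sperm. The part of such a background in the sperm CHH levels was not tested.

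The other genotypes gave similar contrasts between cell types. The CG level of sperm exceeded that of stem cells by 14.9 points for ago5, 15.0 for ago9 and 15.2 for ago59. In CHG the excess was 6.17, 7.32 and 6.04 points in the same order, and in CHH the differences were -2.64, -2.65 and -2.46 points. In points, CHG was thus the context whose sperm excess varied most with genotype.

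Stem-cell and sperm levels went together more closely across members in CG and CHG than in CHH. Across members with 40 or more calls in both wt21 pools, stem-cell and sperm levels had a Pearson correlation of 0.793 in CG (1351 genes), 0.685 in CHG (1309 genes) and 0.288 in CHH (1545 genes). Spearman's rho over the same genes was 0.482 in CG, 0.688 in CHG and 0.294 in CHH, so by rank the levels went together less in CG than in CHG. These are descriptions across genes, which are not independent and share the 2 pools. A CHH level of 10% or more was found in 237 of 1568 members in wt21 stem cells, in 118 of 1548 in wt21 sperm, and in both pools in 38 of 1545. These were 15.1%, 7.62% and 2.46% of the members read. Most members with 10% or more CHH in sperm were thus under 10% in stem cells. Whether the 2 sets overlapped more or less than unrelated sets would was not tested.

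**Figure D3:**
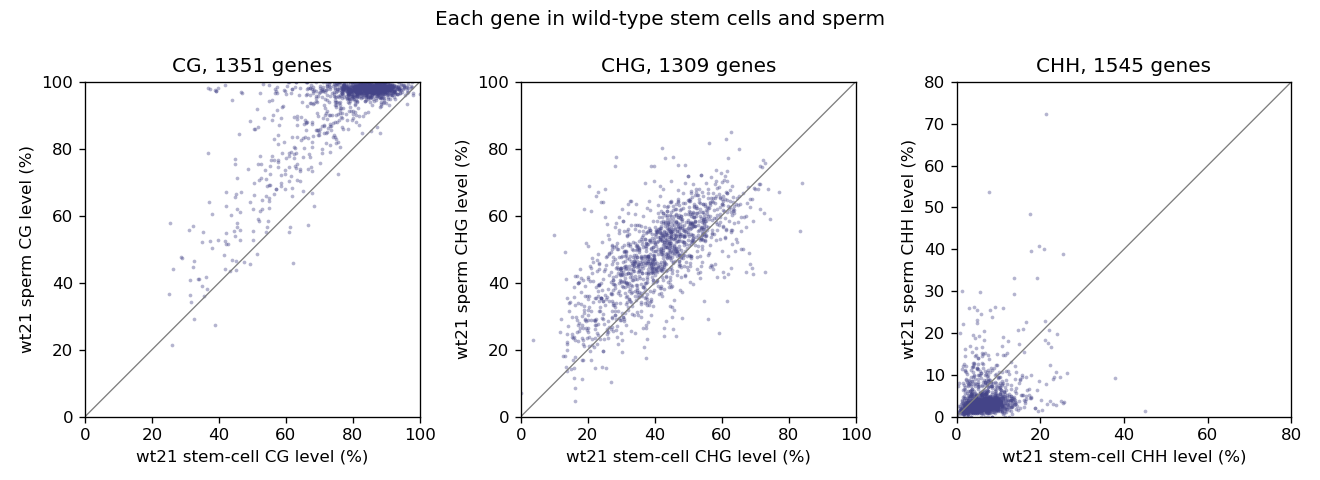
Each point is a member with 40 or more calls in both wild-type pools, with its stem-cell level on the horizontal and its sperm level on the vertical axis, in percent, for CG, CHG and CHH (the CHH axes end at 80%). The grey line marks equal levels: CG points lie above it near the top, CHG points scatter mostly above it, and most CHH points lie below it with a few far above.

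Applied to the 4 sperm pools instead, the same rule gave 1691 genes, of which 1529 were also members by stem cells. These were 96.9% of the stem-cell list and 90.4% of the sperm list. Of the 1540 members with 40 or more calls in both contexts in sperm, 10 had under 15% CHG there and 2 had under 30% CG. The 162 genes that met the rule in sperm alone were of intermediate methylation in stem cells, with medians of 31.7% CG and 11.3% CHG, against 87.9% CG and 27.5% CHG in sperm. Of them, 9 had too few stem-cell calls.

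The CG and CHG excess of sperm was seen in members of each position and gene class compared, but not the CHG excess in members with high CHH. CG was higher in sperm by 15.1 points in members without transposable element overlap and by 13.0 points in those at least 50% inside one. CHG was higher by 8.08 ± 0.472 and 4.52 ± 1.30 points in the same groups. Coding members gave 7.20 ± 0.42 points in CHG and non-coding members 7.90 ± 0.82. In members whose surroundings held under 20% transposable element the CHG difference was 6.33 ± 0.656 points, and where they held at least 50% it was 7.80 ± 0.558 points. In the 233 members with at least 10% CHH in wt21 stem cells, CHG differed by -0.84 ± 1.14 points, with 115 lower in sperm and 118 higher, against 8.82 ± 0.381 points in the 1311 with less CHH. CG was higher in sperm in both sets, by 13.2 and 14.8 points. These sets were split on a stem-cell level of the same contrast. All of these stand beside intervals for counting alone.

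The single genes below were chosen for the size of their difference between wt21 stem cells and wt21 sperm and so are described without comparison. MPC (AT3G19350), which encodes a protein related to the C-terminal part of poly(A)-binding proteins and is known as maternally expressed in the endosperm, had the largest CHG excess in sperm. Its CHG levels were 28.6%, 33.3%, 34.8% and 39.8% in wt21, ago5, ago9 and ago59 stem cells and 77.5%, 71.1%, 61.6% and 65.6% in the sperm pools. All 4 sperm pools lay above all 4 stem-cell pools. The long non-coding RNA genes AT5G04435, AT3G02835 and AT1G07763 and the coding gene AT5G39640 came next, and in each the lowest sperm level lay above the highest stem-cell level.

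The 5 members with the largest CHG deficit in sperm were AT5G53410, AT1G64795, AT1G77815, AT1G48953 and AT5G44495. AT1G48953, an uncharacterized gene, had CHG levels of 61.6%, 57.0%, 59.3% and 52.1% in the stem-cell pools and 34.5%, 34.3%, 35.0% and 36.0% in the sperm pools, in the order wt21, ago5, ago9 and ago59. Its CG levels were alike in the 8 pools, from 72.5% to 82.9%. Its CHH levels were 18.8% to 24.2% in stem cells and 2.11% to 3.99% in sperm. CHG and CHH were thus lower in sperm in every genotype while CG was not.

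In CHH, the largest deficit was in the long non-coding RNA gene AT5G09040 at chr5:24908742-24909077. Its CHH levels were 45.0%, 41.6%, 47.1% and 37.6% in stem cells, and in sperm 1.26% in wt21 but 29.3% in ago5, 29.3% in ago9 and 23.4% in ago59. The wild-type sperm pool stood apart from the other 7, on 159 calls. AT1G77815 followed, at 37.8% in wt21 stem cells and 9.18% in wt21 sperm, and then MIR407, LCR27 and AT3G54730. MIR407 is a microRNA gene inside an annotated transposable element over 96.6% of its length. It had CHH levels of 10.9% to 25.5% in stem cells and 1.43% to 3.12% in sperm.

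The largest CHH excess in sperm was in AT4G04775, a zinc ion binding protein gene 63.8% inside a transposable element. Its CHH levels were 21.2%, 16.4%, 29.8% and 7.51% in stem cells and 72.3%, 66.7%, 44.7% and 60.7% in sperm, in the same order of genotypes. All sperm pools were above all stem-cell pools. AT2G36180, an EF hand calcium-binding protein gene, had 1.20% to 8.20% CHH in stem cells and 17.1% to 34.9% in sperm. In AT1G53655 the excess was seen in wt21 sperm alone, with 48.4% against 16.8% to 18.4% in the mutant sperm pools and 17.5% to 28.9% in stem cells. AT4G06020 and AT5G04845, the other 2 of the 5, also overlapped between cell types once all genotypes were read.

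Among members with at least 1000 stem-cell CHG calls, the 5 with the highest CHG level were AT3G26616, AT5G56920, AT3G10950, AT2G34655 and AT3G17400. AT3G26616, whose stretch is printed above, had 70.2% to 73.9% CHG in stem cells and 65.3% to 74.7% in sperm. AT3G10950, annotated as a zinc-binding ribosomal protein gene, had 60.5% to 71.6% in stem cells and 55.4% to 63.2% in sperm. AT2G34655 had 64.0% to 68.2% in stem cells and 46.1% to 49.0% in sperm, without overlap. These 4 genes other than AT3G26616 lay in surroundings with under 7% transposable element and had no base inside one.

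In sperm, mean CHG of the members was lower in ago5 and in ago59 than in wt21, by more points than mean CG or CHH. As a share of the wt21 mean, CHH differed by more, at -10.1% in ago5 and -8.73% in ago59. CHG differed by -5.18% and -7.17% on that scale. Sperm of wt21 had a mean CHG level of 47.9%, and sperm of ago5, ago9 and ago59 had 45.5%, 47.7% and 44.5%. Over 1575 genes, ago5 stood at -2.48 ± 0.452 points from wt21, ago9 at -0.27 ± 0.421 and ago59 at -3.43 ± 0.438. The value for ago9 lay within its counting interval and the others outside theirs. Over the 1306 members with at least 40 calls in each pool, ago9 stood at -0.59 ± 0.308 points, outside its interval, and the median over all members was -0.60 points. In ago59 sperm 1093 members were below wt21 and 476 above, in ago5 sperm 1038 and 530, and in ago9 sperm 837 and 733.

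**Figure D4:**
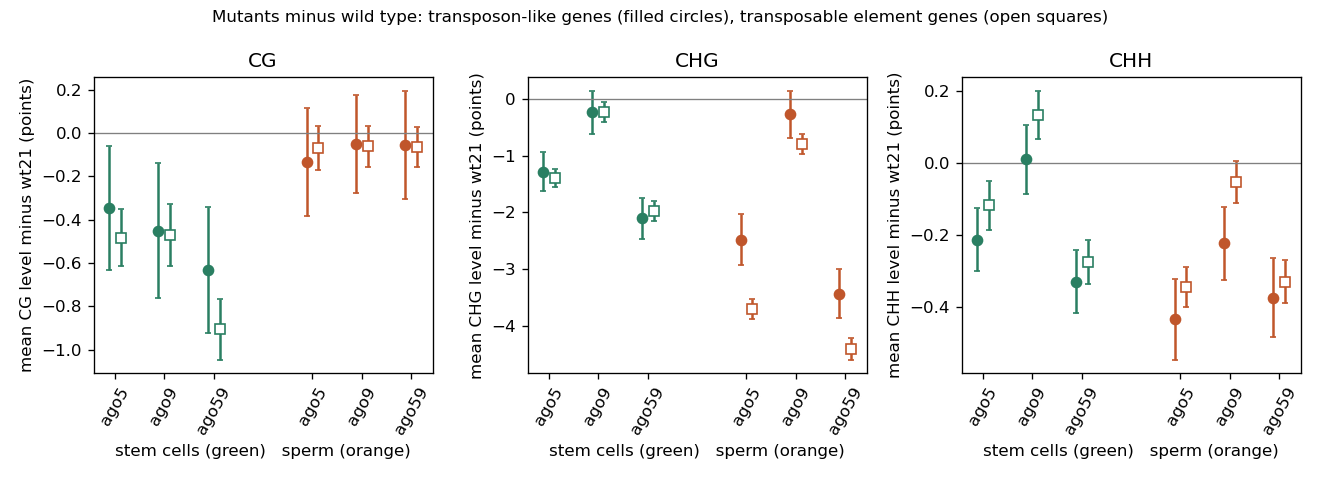
Mean level in each mutant minus wt21, in percentage points, for the members (filled circles) and for transposable element genes (open squares), in stem cells (green) and sperm (orange), with bars for 95% counting intervals and vertical scales that differ between contexts. In CHG the ago5 and ago59 points lie below 0 in both cell types, at -2.48 and -3.43 points for members in sperm, and the ago9 points lie nearer to 0.

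Sperm CG stood -0.13 points from wt21 for ago5, -0.051 for ago9 and -0.053 for ago59, each within its counting interval, the widest of which was ± 0.249 points. Over the 1281 members with at least 40 calls in each pool, ago5 stood at -0.26 ± 0.143 points, outside its interval. For sperm CHH the 3 values were -0.44 ± 0.112, -0.22 ± 0.101 and -0.37 ± 0.110 points. CG-only genes, with a mean sperm CHH of 1.03% in wt21, gave -0.060, -0.050 and -0.12 points. Transposable element genes gave -0.35, -0.052 and -0.33 points. The part of a shift common to all genes in the member values was not tested. In stem cells, where the rule used the sum of the same pools, CHG stood -1.28 ± 0.348 points from wt21 for ago5, -0.23 ± 0.377 for ago9 and -2.10 ± 0.357 for ago59. CHH there differed by -0.21, 0.010 and -0.33 points, and CG by -0.35, -0.45 and -0.63 points.

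Transposable element genes had CHG differences in sperm of -3.70 points for ago5, -0.80 for ago9, outside its counting interval, and -4.41 for ago59. Those of the members were thus of the same order over genotypes and smaller in size. CG-only genes, with little CHG to begin with, differed by -0.18, -0.012 and -0.12 points. The 3 mutants share the wt21 pool, so a deviation of that pool would enter all 3 differences. The order of the genotypes in stem cells came from other pools than the order in sperm.

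Counted by genes, 236 of 1525 members were at least 10 points below wt21 in sperm CHG in ago5 and 86 at least 10 points above, where 0.913% and 0.37% of all genes were. In ago59 the counts were 283 and 104 of 1534, where 1.06% and 0.491% of all genes were. In ago9 they were 169 and 114 of 1539, where 0.655% and 0.497% of all genes were. Counts above wt21 stood beside counts below it in all 3 mutants. Of transposable element genes, 9.76%, 4.09% and 11.1% were below wt21 in ago5, ago9 and ago59 sperm. Above it were 1.49%, 2.41% and 1.62% of them. Stem-cell CHG gave 217 below and 133 above of 1567 in ago5 (0.764% and 0.473% of all genes). It gave 187 and 172 of 1554 in ago9 (0.666% and 0.626%) and 250 and 133 of 1558 in ago59 (0.873% and 0.48%). With a median of 132.5 to 175 CHG calls per member and pool, differences of 10 points in one gene are near counting error. In wt21 sperm the 90th percentile of CHG over all genes was 2.33%, so few genes other than members could fall by 10 points. The stem-cell counts also used pools of the rule. Nothing is therefore read from these counts against the shares of all genes.

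Members of all positions shared the CHG deficit of ago59 sperm. It was -2.92 ± 0.729 points where transposable elements filled under 20% of the surroundings, -3.61 ± 0.957 at 20% to 50% and -3.78 ± 0.613 at 50% or more. By chromosome it ranged from -2.57 points on chromosome 1 to -4.00 points on chromosome 2. Coding members differed by -3.45 ± 0.48 points and non-coding members by -3.40 ± 0.95. In CHH, ago5 sperm differed by -0.79 ± 0.221 points in members with under 20% transposable element around them and by -0.054 ± 0.115 where it was at least 50%.

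A difference of at least 30 CG points from wt21 in the same direction in both cell types was found in 3 members. In ago59 they were AT1G75945, AT1G07493 and AT4G13992, or 0.195% of the 1537 members with 10 or more calls in all 4 pools, where 0.0592% of all genes were called. In ago5 and in ago9 it was AT1G75945 alone, 1 of 1527 and 1 of 1530, where 0.0467% and 0.0623% of all genes were called. The stem-cell and the sperm difference share no pool. The rule summed the ago59 stem-cell pool with the others, so genes high in ago59 alone could pass it. In wt21 stem cells AT1G07493 and AT4G13992 had 26.4% and 28.5% CG, under the 30% of the rule. Nothing is therefore read from these shares of members against those of all genes.

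AT1G75945, an uncharacterized coding gene at chr1:28515245-28515916, lies wholly inside the annotated transposable element AT1TE93275. Its CG levels in wt21, ago5, ago9 and ago59 stem cells were 87.9%, 50.9%, 35.7% and 1.12%, and 97.6%, 44.4%, 52.8% and 4.37% in sperm. CHG was 61.1%, 28.1%, 27.0% and 0.43% in stem cells and 67.2%, 36.4%, 34.3% and 3.98% in sperm. The single mutants were thus intermediate and the double mutant nearly unmethylated in each cell type, on 126 to 277 CG calls per pool. The printed stretch holds 9 CG and 3 CHG sites. The element around it followed the gene, with 84.7%, 43.6%, 37.9% and 0.77% CG in stem cells. The flanking genes AT1G75940, 961 bases away, and AT1G75950, 603 bases away, were under 2% CG in every pool. An intermediate level in a pool can come from all nuclei or from a share of them, and calls summed over a gene do not tell these apart.

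**Figure D5:**
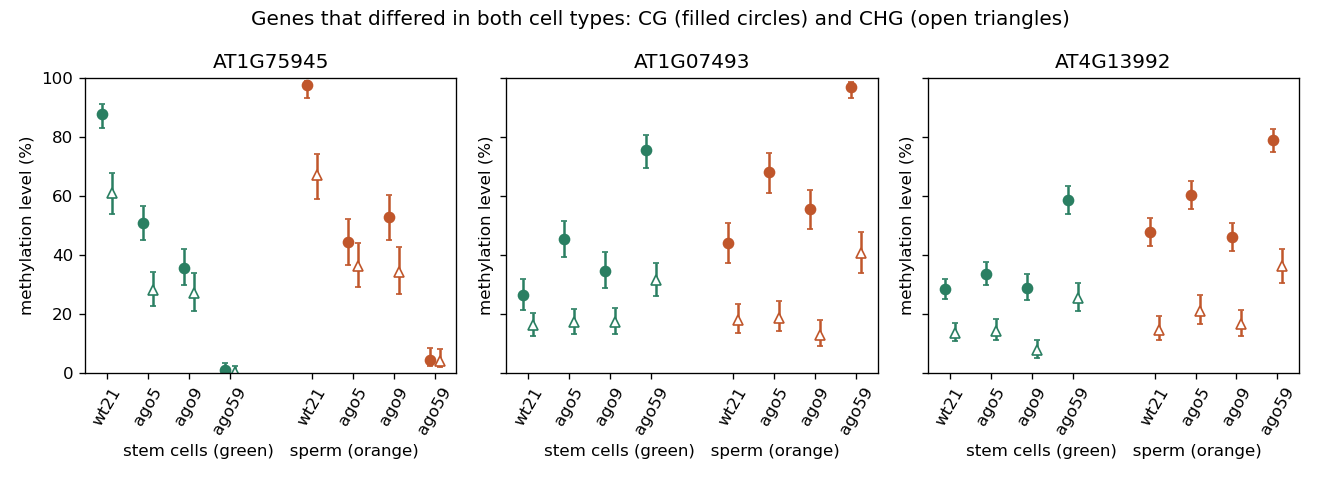
CG (filled circles) and CHG (open triangles) levels of 3 genes in the 4 stem-cell pools (green) and the 4 sperm pools (orange), in percent, with bars for Wilson 95% counting intervals. In stem cells AT1G75945 has 87.9% CG in wt21 and 1.12% in ago59, with the single mutants between, and AT1G07493 and AT4G13992 are highest in ago59 in both cell types.

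The other 2 genes were more methylated in the double mutant. AT1G07493, a long non-coding RNA gene at chr1:17961498-17961772, had CG levels of 26.4%, 45.4%, 34.6% and 75.5% in wt21, ago5, ago9 and ago59 stem cells and 44.0%, 68.3%, 55.5% and 97.1% in sperm. Its order of genotypes was the same in both cell types. AT4G13992, which encodes a C1 domain protein with many cysteine and histidine residues, had 28.5%, 33.7%, 29.0% and 58.8% in stem cells and 47.8%, 60.6%, 46.2% and 79.1% in sperm. CHG was highest in ago59 in both genes and both cell types, at 31.4% and 40.7% in AT1G07493 and 25.5% and 36.1% in AT4G13992.

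AT4G13992 was also one of the 3 genes just above the CHG threshold, with AT4G16195 and AT2G05235. The 3 genes just below it were AT5G54700, AT5G39170 and AT2G05975, whose summed stem-cell CHG levels were 14.8% each. In sperm, AT5G39170 and AT2G05975 had summed CHG levels of 33.3% and 33.2%, and AT5G54700 had 11.6%. The threshold thus cuts through genes that sperm would place on either side.

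Among 13 genes known for silencing by methylation or for imprinting, QQS and HISN6B met the rule. QQS, a gene known for natural epialleles that acts on starch content, had CG levels of 46.6%, 61.3%, 58.2% and 63.7% in stem cells and 67.1%, 70.2%, 61.4% and 68.8% in sperm. Its CHG levels, from 29.6% to 40.6%, overlapped between cell types. HISN6B, a histidine biosynthesis gene, had 58.6% to 69.7% CHG over the 8 pools. It has a near-identical copy, HISN6A, and reads could be placed on either, so its levels are uncertain. FWA, a homeodomain gene silenced through repeats at its start, had 13.6% CG and 1.56% CHG summed over stem cells, and SDC, an F-box gene with promoter repeats, had 7.44% and 3.45%. The other 9 listed genes had less CHG than SDC. A level over the whole gene can miss methylation of a short stretch.

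Of 4 genes listed for methylated introns or for their processing, AT1G58602, which encodes the disease resistance protein RPP7, met the rule. It is 19695 bases long, with exons over 27.4% and transposable elements over 58.9% of its length. Its CHG levels were 36.4% to 39.1% in stem cells and 37.4% to 41.7% in sperm, and its CG levels 38.7% to 45.3% and 53.0% to 57.9%. IBM1, a histone demethylase gene with a methylated intron, had 22.4% CG and 1.35% CHG over its whole length and was no member. LON4 and IBM2 were not members either. In the RPP5 cluster, RPP4 met the rule with 40.9% to 46.1% CHG in stem cells and 44.2% to 48.7% in sperm, while SNC1 and RPP5 had summed stem-cell CHG levels of 3.78% and 3.93%. Transposable elements covered 43.3% of RPP4 and none of the other 2. AGO5 and AGO9 themselves had 0.57% and 0.44% CHG in stem cells.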

How the data were processed

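Per the labels' protocols, the Pico Methyl-Seq kit turned 1 to 5 ng of DNA into bisulfite libraries, although RNA is entered as the molecule. Trim Galore, Bismark, bedtools 2.30.0 and TAIR10 are named in the submitters' processing notes, without roles or order. Per the file headers, the authors deposited, for each feature, group and context, the number of methylated calls and the number of all cytosine calls. Their levels, deposited beside these, were not used. A read gives a call for each cytosine it covers. Whether the 24 samples, 8 of them resequencing runs, were summed into the 8 pools is not stated, and columns headed as wild type were read as wt21. The 48 columns of calls were used.

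Total calls per pool were 204779091 to 303354876 over all 69289 features, of which 2538286 to 3862188 lay in members. Levels, unweighted means over genes with calls in both pools, differences and 95% counting intervals (binomial variance per gene, Wilson for single genes) were computed in Python 3.11.15 with pandas 2.3.3 and numpy 2.4.6, and the scripts were tested on simulated data. Tests over 2 replicates had been planned and could not be made with 1 column per group. Differences of at least 10 points with at least 10 calls in each pool were counted. Members and gene lists were chosen with earlier results of these data known.

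The genes named were the 5 members with the highest stem-cell CHG among those with at least 1000 calls, the 5 with the largest excess and deficit in wt21 sperm in CHG and CHH (at least 40 calls in both pools), those at least 30 CG points from wt21 in both cell types, the 3 on each side of the CHG threshold, and 22 listed genes. Families were added after the names were seen. All 1578 members had the same start and end in RefSeq TAIR10.1, which supplied symbols, products and sequences. Alternatives varied the thresholds, call minimums, averaging, overlap with transposable elements and the cell type used by the rule.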

Additional observations from a re-analysis of the deposited data

How the results depend on the processing

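Of 160 alternative values, 112 were within the tolerance set and 48 moved. Among differences outside their counting interval, 0 changed sign. Those inside it could, as in ago9 stem-cell CHH, at 0.010 as a mean. Some differences changed their side of the interval: the ago5 CG and ago9 CHG differences in sperm moved outside with at least 40 calls in each pool (-0.26 ± 0.143 and -0.59 ± 0.308), and without transposable element overlap the stem-cell CG differences of ago5 and ago9 moved inside (-0.15 ± 0.353 and -0.29 ± 0.388). The wt21 sperm minus stem-cell difference was 13.2 points in CG and -2.68 in CHH as a median over genes, and 15.7 and -2.60 over summed calls. With members chosen by the sperm pools it was 16.8 in CG, 8.70 in CHG and -2.08 in CHH. Without any overlap with transposable elements or pseudogenes it was 15.1 in CG and 8.03 in CHG, and with at least 40 calls in each pool, an alternative added after seeing the data, 14.3 in CG. Over summed calls CG differed from wt21 by -0.61 in ago5 sperm and by -1.22 in ago5 and -1.42 in ago9 stem cells. CHG differed by -0.87 in ago9 stem cells, and CHH by -0.10 in ago5 stem cells. As medians, CHH differed by -0.32 in ago5 sperm, -0.11 in ago5 stem cells and -0.100 in ago9 stem cells. It differed by -0.16 in ago59 stem cells without such overlap. At 20 points in place of 10, sperm against stem cells gave 284 higher in CG, 173 higher and 30 lower in CHG, and 11 higher and 7 lower in CHH. Sperm CHG then gave 12 higher and 57 lower for ago5, 25 and 29 for ago9, 17 and 55 for ago59. Stem-cell CHG gave 32 and 49, 45 and 35, and 32 and 51. With at least 40 calls, 60 were lower in CHG in wt21 sperm than in stem cells. Sperm CHG then gave 42 higher and 150 lower in ago5, 57 and 101 in ago9 and 48 higher in ago59, and stem-cell CHG 71, 98 and 84 higher. With 20 points in both cell types, 3 members differed in ago5, 3 in ago9 and 5 in ago59. The causes of these shifts were not tested; fewer genes can pass a larger minimum.

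No paired analysis was possible because the table has 1 column per group. Leaving out a replicate was not run for the same reason. Single genes are limited by depth: the median member had 132.5 to 186 CG or CHG calls in a pool. In 10 members the stem-cell pools held at least 5 times the CHH calls of the sperm pools. Of these, 8 lie on chromosome 2.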
